A study of Mus musculus with 16 samples.

Results

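The genes described here encode the Fc receptors of myeloid cells. They were chosen by symbol, as Fcgr1, Fcgr4, Fcgr3, Fcgr2b, Fcer1g, Fcrls, Fcgrt and Fcer2a, and all 8 were found among the 23356 genes of the deposited table. Transcripts of bone marrow-derived dendritic cells (BMDCs) were sequenced to ask which part of the response to c-di-GMP, a bacterial cyclic dinucleotide that activates the sensor STING, passes through STING (encoded by Tmem173) and through the transcription factors IRF1, IRF3 and IRF7. Bone marrow of C57BL/6-background mice was grown with GM-CSF and IL-4, and the floating and loosely attached cells were collected, with no sort described, so a culture can hold other cells than dendritic cells. The 8 conditions were wild-type (WT), Tmem173-/-, Irf1-/- and Irf3/7-/- (double knockout) BMDCs, each either left without treatment (NT) or given 25 µg/ml c-di-GMP (CDG) for 18 h. Mice were sex-matched and 6 to 12 weeks old. The labels list 16 samples, 2 for each condition, but the authors combined these before deposition.

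Each gene has a single FPKM per condition (fragments counted per kilobase of a gene's transcript and scaled to the mapped total, which makes levels comparable between genes), with the lower and the upper bound of the interval that Cuffdiff gave it. The spread between replicates is therefore unknown and no difference was tested against it. In its place, a call of higher or lower required a difference of more than 2-fold on the scale of log2(FPKM + 0.1), intervals of both conditions that did not overlap, and at least 1 FPKM in one of them. Log2 differences are given with the range that results when the bounds of both intervals are set against each other. In such bulk samples, fewer cells that express a gene and less RNA per cell cannot be told apart.

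Fc receptors bind the constant part of antibodies. Fcgr1, Fcgr3 and Fcgr4 encode the activating IgG receptors, which signal through the ITAM of the common γ chain (Fcer1g) to Syk, whereas Fcgr2b encodes the inhibitory IgG receptor, whose ITIM recruits the phosphatase SHIP1 (Inpp5d). The balance of both kinds sets how a dendritic cell responds to immune complexes. Fcgrt encodes the heavy chain of the neonatal Fc receptor, which salvages IgG and pairs with β2-microglobulin, Fcer2a encodes the low-affinity IgE receptor CD23, best known from B cells, and Fcrls encodes an Fc receptor-like protein best known as a marker of microglia.

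Fcgr4, Fcgr3, Fcgr2b and Fcer1g lie on chromosome 1, Fcgr1 and Fcrls on chromosome 3, Fcgrt on chromosome 7 and Fcer2a on chromosome 8. The 250 bases before the start site are shown for Fcgr4 and Fcgr1, which rose with c-di-GMP in WT BMDCs, for Fcrls, which fell, and for the inhibitory Fcgr2b, which was not called there. They were read from RefSeq promoter windows (GRCm38.p6), in which all 8 genes were found. Capitals mark matches on either strand to the GAS motif TTCNNNGAA (which reads the same on both strands), the ISRE core (bound by IRFs; a pair of GAAA words with any 2 bases between them) and the PU.1 core GAGGAA (bound by the myeloid factor PU.1).
Fcgr4, chr1:171018676-171018925, plus strand: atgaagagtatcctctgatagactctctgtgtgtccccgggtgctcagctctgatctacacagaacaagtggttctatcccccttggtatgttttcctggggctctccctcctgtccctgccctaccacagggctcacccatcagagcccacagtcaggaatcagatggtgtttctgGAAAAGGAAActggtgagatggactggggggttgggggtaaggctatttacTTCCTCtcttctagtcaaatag
Fcgr1, chr3:96293970-96294219, minus strand: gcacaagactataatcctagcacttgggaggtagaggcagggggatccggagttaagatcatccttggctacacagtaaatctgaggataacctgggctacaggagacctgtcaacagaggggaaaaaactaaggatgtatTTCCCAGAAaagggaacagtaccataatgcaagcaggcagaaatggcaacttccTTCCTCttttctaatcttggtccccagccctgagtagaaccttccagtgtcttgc
Fcrls, chr3:87263525-87263774, minus strand: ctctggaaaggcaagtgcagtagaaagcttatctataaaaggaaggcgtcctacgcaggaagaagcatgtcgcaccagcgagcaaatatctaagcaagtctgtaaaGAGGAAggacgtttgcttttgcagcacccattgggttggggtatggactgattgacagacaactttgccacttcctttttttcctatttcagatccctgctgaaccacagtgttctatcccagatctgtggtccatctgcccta
Fcgr2b, chr1:170976072-170976321, minus strand: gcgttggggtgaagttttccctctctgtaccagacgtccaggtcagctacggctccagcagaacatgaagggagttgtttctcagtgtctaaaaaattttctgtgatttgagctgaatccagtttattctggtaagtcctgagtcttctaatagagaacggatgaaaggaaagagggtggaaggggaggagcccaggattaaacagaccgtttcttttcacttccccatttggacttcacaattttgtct
The window of Fcgr4 held an ISRE core at -73 to -64 from the start site and a PU.1 core at -22 to -17. That of Fcgr1 held a GAS motif at -109 to -101 and a PU.1 core at -55 to -50. Fcrls had a PU.1 core at -144 to -139, and in the window of Fcgr2b none of the 3 motifs was found. No match in these windows overlapped another. Among 32841 windows of the same length, 2.98% held the ISRE core, 7.02% the GAS motif and 23.3% the PU.1 core. These matches describe letters and not binding.

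The ligand-binding chain with the largest rise was Fcgr4, the receptor for IgG2a and IgG2b. Its level was 5.28 FPKM in WT NT and 47.6 FPKM in WT CDG BMDCs. In Tmem173-/- it was 4.16 FPKM without and 3.32 FPKM with c-di-GMP. In Irf1-/- BMDCs it was 0.529 FPKM without and 20.1 FPKM with c-di-GMP, and in Irf3/7-/- BMDCs 4.68 and 21.8 FPKM. The untreated Irf1-/- BMDCs were thus the lowest and the WT CDG BMDCs the highest of the 8 conditions, apart from their neighbours in the order. The intervals of Irf3/7-/- CDG and Irf1-/- CDG overlapped, as did those of the neighbouring WT NT, Irf3/7-/- NT, Tmem173-/- NT and Tmem173-/- CDG. With c-di-GMP, Fcgr4 rose 8.86-fold in WT (log2 3.15, range 2.33 to 3.99), 32.1-fold in Irf1-/- (5.00, range 4.0 to 6.17) and 4.57-fold in Irf3/7-/- BMDCs (2.19, range 1.33 to 3.09). In Tmem173-/- BMDCs the log2 difference was -0.31 (range -1.31 to 0.65), which was not called.

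Fcgr1, the high-affinity IgG receptor CD64, was present at 18.3 FPKM in WT NT and 40.6 FPKM in WT CDG BMDCs. It stood at 29.5 and 29.3 FPKM in Tmem173-/-, 5.39 and 35.1 FPKM in Irf1-/-, and 14.9 and 21.5 FPKM in Irf3/7-/- BMDCs, without and with c-di-GMP. Only the untreated Irf1-/- BMDCs were apart from the next condition in the order of levels. Fcgr1 rose with c-di-GMP in WT (log2 1.15, range 0.49 to 1.81) and in Irf1-/- BMDCs (2.68, range 1.99 to 3.38). The log2 difference was 0.52 (range -0.13 to 1.18) in Irf3/7-/- and -0.01 (range -0.67 to 0.66) in Tmem173-/- BMDCs, and neither was called.

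Fcgr3, the low-affinity activating receptor, was the most abundant of the 3 activating chains in each condition, at 275 and 224 FPKM in WT, 331 and 265 FPKM in Tmem173-/-, 292 and 155 FPKM in Irf1-/-, and, in Irf3/7-/- BMDCs, 242 and 190 FPKM, without and with c-di-GMP. Its highest level was 2.14 times its lowest, and each condition overlapped its neighbour in the order of levels. It was called in none of the comparisons. The largest of its log2 changes with c-di-GMP, -0.92 (range -1.60 to -0.23) in Irf1-/- BMDCs, lay under the 2-fold threshold although the intervals were apart.

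Fcgr2b, the inhibitory receptor, separated the conditions into a high and a low set. It was at 234 and 190 FPKM in Tmem173-/- BMDCs, without and with c-di-GMP, and at 183 FPKM in Irf1-/- NT. The other conditions were lower, with 69.5 and 74.2 FPKM in WT, 69.0 and 55.7 FPKM in Irf3/7-/- and 45.2 FPKM in Irf1-/- CDG BMDCs. Intervals overlapped between neighbours within each set and were apart between both. With c-di-GMP, Fcgr2b fell in Irf1-/- BMDCs, 4.03-fold on the scale of FPKM + 0.1 (log2 -2.01, range -2.91 to -1.11). The log2 difference was 0.09 (range -0.73 to 0.89) in WT, -0.29 in Tmem173-/- and -0.31 in Irf3/7-/- BMDCs, none of them called.

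Fcer1g, the signalling chain shared by the activating receptors, was the most abundant of the 8 genes in each condition. Its level was 436 and 860 FPKM in WT, 1045 and 796 FPKM in Tmem173-/-, 419 and 504 FPKM in Irf1-/- and 420 and 858 FPKM in Irf3/7-/- BMDCs, without and with c-di-GMP. All neighbours in this order overlapped. The gain in Irf3/7-/- BMDCs (log2 1.03, range 0.18 to 1.88) was just past the threshold and that in WT BMDCs (0.98, range 0.11 to 1.81) just under it, and the changes differed by 0.05 (range -1.63 to 1.77). The interval of this gene is lopsided, since its upper bound lay a median of 5.67% above the FPKM, against 22.7% for Fcgr1.

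Fcrls moved opposite to Fcgr4. It stood at 30.4 FPKM in WT NT and at 0.456 FPKM in WT CDG BMDCs. In Irf1-/- BMDCs it was 146 FPKM without and 6.06 FPKM with c-di-GMP, in Irf3/7-/- BMDCs 36.6 and 1.62 FPKM, and in Tmem173-/- BMDCs 40.2 and 27.7 FPKM. Its highest level, in Irf1-/- NT, was 320 times its lowest, in WT CDG, the widest span of the 8 genes. The 3 treated genotypes with STING were each apart from their neighbours, and the intervals of WT NT, Irf3/7-/- NT and Tmem173-/- NT and CDG overlapped from one to the next. Fcrls fell with c-di-GMP by 5.78 on the log2 scale in WT (range -6.78 to -4.93) and by 4.57 in Irf1-/- BMDCs (range -5.27 to -3.87). In Irf3/7-/- BMDCs it fell by 4.41 (range -5.23 to -3.67). The log2 difference in Tmem173-/- BMDCs was -0.53 (range -1.19 to 0.13) and was not called.

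Fcgrt was low, with 11.8 and 7.14 FPKM in WT, 18.9 and 15.6 FPKM in Tmem173-/-, 15.0 and 5.44 FPKM in Irf1-/- and 12.8 and 3.46 FPKM in Irf3/7-/- BMDCs, without and with c-di-GMP. It fell with c-di-GMP in Irf1-/- (log2 -1.45, range -2.23 to -0.69) and Irf3/7-/- BMDCs (-1.86, range -2.68 to -1.07). In WT BMDCs its log2 difference was -0.71 (range -1.49 to 0.05) and in Tmem173-/- BMDCs -0.28, neither called. B2m, its light chain, was at 3455 FPKM in WT NT and 8294 FPKM in WT CDG and rose (log2 1.26, range 0.23 to 2.30). Fcer2a stayed between 0.0318 and 0.499 FPKM in all conditions and was not tested.

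**Figure D1:**
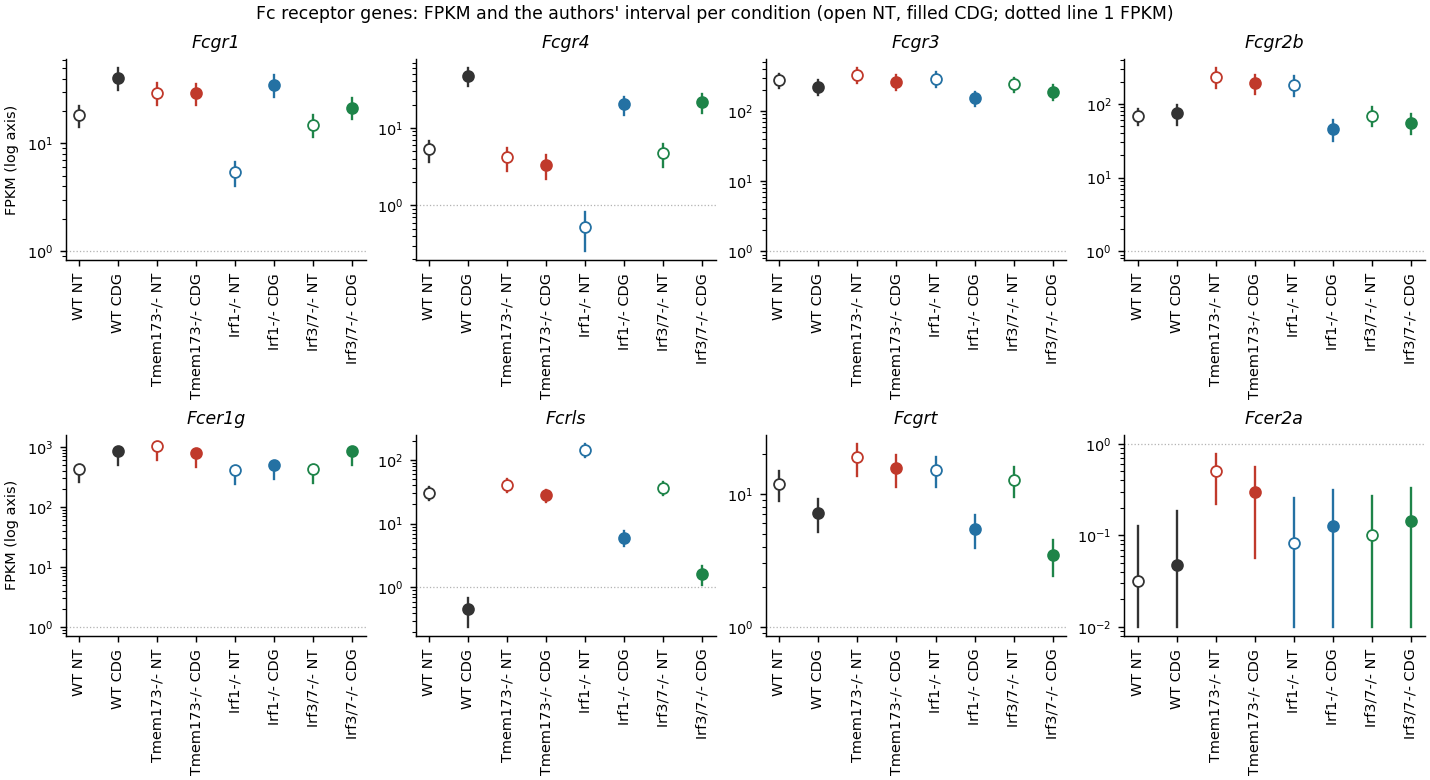
Each panel shows 1 gene, with the FPKM on a log axis for the 8 conditions; points are the deposited FPKM (open NT, filled CDG), vertical lines the authors' interval, and lines of Fcer2a that reach the foot of the panel have a lower bound of 0. Fcgr4 is highest in WT CDG (47.6 FPKM) and Fcrls lowest there (0.456 FPKM), while Fcgr3 stays between 155 and 331 FPKM.

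Counted over the 7 genes tested, 2 rose and 1 fell with c-di-GMP in WT BMDCs, where 10.5% of the 11201 genes tested were higher and 9.96% lower. In Irf1-/- BMDCs 2 rose and 3 fell (9.67% higher and 7.81% lower among all genes tested). In Irf3/7-/- BMDCs 2 rose and 2 fell (10.2% and 7.68%). In Tmem173-/- BMDCs none was called, beside 0.0552% of all genes tested in either direction. Their median log2 difference was 0.09 in WT, -0.92 in Irf1-/-, -0.31 in Irf3/7-/- and -0.31 in Tmem173-/- BMDCs, while that of all genes tested was between -0.02 and 0.00.

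**Figure D2:**
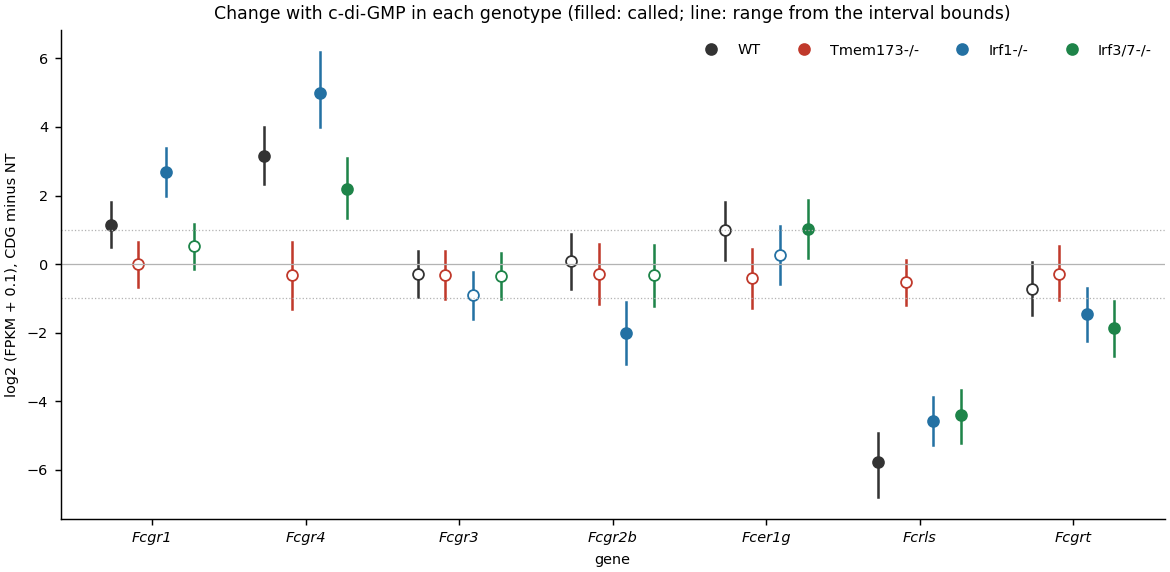
Log2 difference of FPKM + 0.1 between CDG and NT for the 7 genes tested in each genotype; filled points were called, lines are the range from the interval bounds, and dotted lines mark a 2-fold difference. Fcgr4 lies at 3.15, 5.00 and 2.19 in WT, Irf1-/- and Irf3/7-/- BMDCs and Fcrls at -5.78, -4.57 and -4.41, whereas the 7 points of Tmem173-/- BMDCs lie between -0.53 and -0.01.

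Whether a change differed from that in WT BMDCs was read from the changes themselves, which had to differ by more than 1 on the log2 scale with ranges that did not overlap. By this rule Fcgr4 and Fcrls differed in Tmem173-/- BMDCs, by -3.46 (range -5.30 to -1.68) and 5.24 (range 3.74 to 6.91), and 8.58% of all genes tested did so. In Irf1-/- BMDCs 3 members differed, with 1.34% of all genes tested. Fcgr1 gained 1.53 more (range 0.19 to 2.89) and Fcgr4 1.86 more (range 0.01 to 3.84) than in WT BMDCs, and both started from a lower untreated level. Fcgr2b differed by -2.11 (range -3.80 to -0.39), from a higher untreated level. The call of Fcgr4 was lost with a pseudocount of 1 FPKM (difference 0.84) and with median centring (1.82). In Irf3/7-/- BMDCs no member differed by this rule (1.55% of all genes tested did), and the largest differences were 1.37 for Fcrls (range -0.30 to 3.11) and -1.14 for Fcgrt (range -2.72 to 0.42).

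The knockouts were next set against WT BMDCs of the same treatment, which share that WT column as their reference. Among untreated BMDCs, Irf1-/- had 2 members lower and 2 higher, where 3.52% of all genes tested were lower and 1.26% higher. The lower ones were Fcgr4 (log2 -3.10, range -4.30 to -2.01) and Fcgr1 (-1.74, range -2.43 to -1.06), both activating, and the higher ones Fcrls (2.26, range 1.59 to 2.92) and the inhibitory Fcgr2b (1.39, range 0.58 to 2.19). Untreated Tmem173-/- BMDCs had 2 members higher and none lower (5.04% higher and 5.95% lower among all genes tested), namely Fcgr2b (1.75, range 0.94 to 2.53) and Fcer1g (1.26, range 0.40 to 2.12). In untreated Irf3/7-/- BMDCs no member was called (2.04% of all genes tested in either direction, 1.17% higher), and the 7 log2 differences lay between -0.29 and 0.27.

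Among treated BMDCs, Fcgr4 was lower and Fcrls higher in each knockout than in WT. The log2 difference of Fcgr4 was -3.80 (range -4.71 to -2.95) in Tmem173-/-, -1.24 (range -2.00 to -0.46) in Irf1-/- and -1.13 (range -1.90 to -0.35) in Irf3/7-/- BMDCs. That of Fcrls was 5.65 (range 4.80 to 6.64), 3.47 (range 2.57 to 4.50) and 1.63 (range 0.62 to 2.72) in the same order. In Tmem173-/- CDG BMDCs Fcgr2b (1.36, range 0.48 to 2.26) and Fcgrt (1.11, range 0.31 to 1.91) were higher as well, which made 3 members higher and 1 lower, with 12.9% higher and 13.5% lower among all genes tested. In Irf1-/- CDG BMDCs 1 member was higher and 1 lower (2.65% and 4.91%). In Irf3/7-/- CDG BMDCs 1 was higher and 2 lower (4.61% and 2.69%), the second being Fcgrt (-1.02, range -1.87 to -0.20). Fcgr1 was at -0.91 there (range -1.57 to -0.25), under the 2-fold threshold although the intervals were apart. With a pseudocount of 1 FPKM, the calls of Fcrls and Fcgrt in Irf3/7-/- CDG were lost, at 0.85 and -0.87. That of Fcgrt was also lost with median centring (-0.96), and that of Fcrls with a minimum of 5 FPKM, which neither condition reached.

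Set directly against each other, treated Irf1-/- and Irf3/7-/- BMDCs differed in 1 member, with 9.84% of all genes tested called in either direction. Fcrls was higher in Irf1-/- (log2 1.84, range 1.05 to 2.68). The log2 difference of Fcgr4 was -0.11 (range -0.90 to 0.69) and that of Fcgr1 0.70 (range 0.04 to 1.36), neither called.

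**Figure D3:**
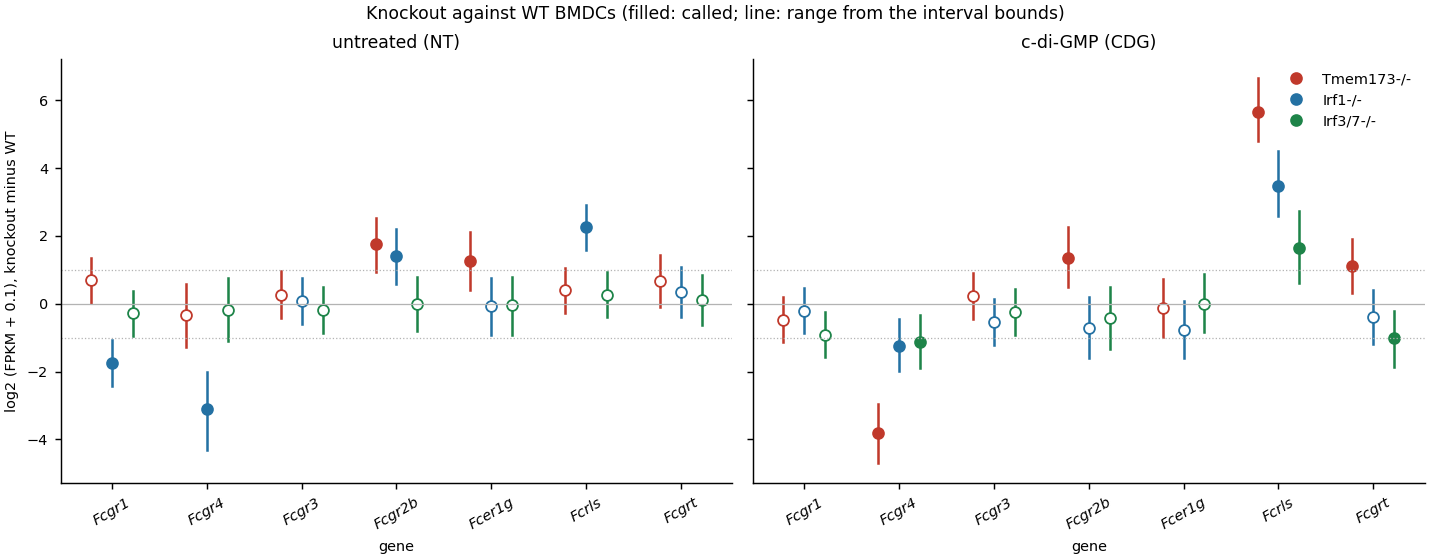
Log2 difference of FPKM + 0.1 between each knockout and WT BMDCs for the 7 genes tested, without treatment on the left and with c-di-GMP on the right; filled points were called, lines are the range from the interval bounds, and dotted lines mark a 2-fold difference. Among untreated BMDCs, Irf1-/- is lower for Fcgr1 (-1.74) and Fcgr4 (-3.10); among treated ones, all 3 knockouts are lower for Fcgr4 and higher for Fcrls.

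Since FPKM is scaled by length, levels of the IgG receptors can be summed. Fcgr3 made up 92.1% of the summed FPKM of Fcgr1, Fcgr3 and Fcgr4 in WT NT and 71.8% in WT CDG BMDCs. The share of Fcgr4 was 1.77% and 15.2% there. Without and with c-di-GMP, it was 1.14% and 1.12% in Tmem173-/-, 0.177% and 9.57% in Irf1-/-, and, for Irf3/7-/- BMDCs, 1.79% and 9.32%. The sum of the activating chains over Fcgr2b was 4.29 in WT NT (range 2.65 to 6.99) and 4.21 in WT CDG (range 2.46 to 7.37). It was 3.80 and 4.19 in Irf3/7-/- BMDCs, without and with c-di-GMP, and 1.56 in Tmem173-/- BMDCs of either treatment. In Irf1-/- BMDCs it was 1.63 (range 0.95 to 2.86) without and 4.65 (range 2.70 to 8.15) with c-di-GMP. The ranges of Irf1-/- NT and CDG overlap, so these ratios could not be told apart at this precision. Of all pairs of conditions, only Tmem173-/- CDG, whose range ended at 2.69, and Irf1-/- CDG did not overlap.

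**Figure D4:**
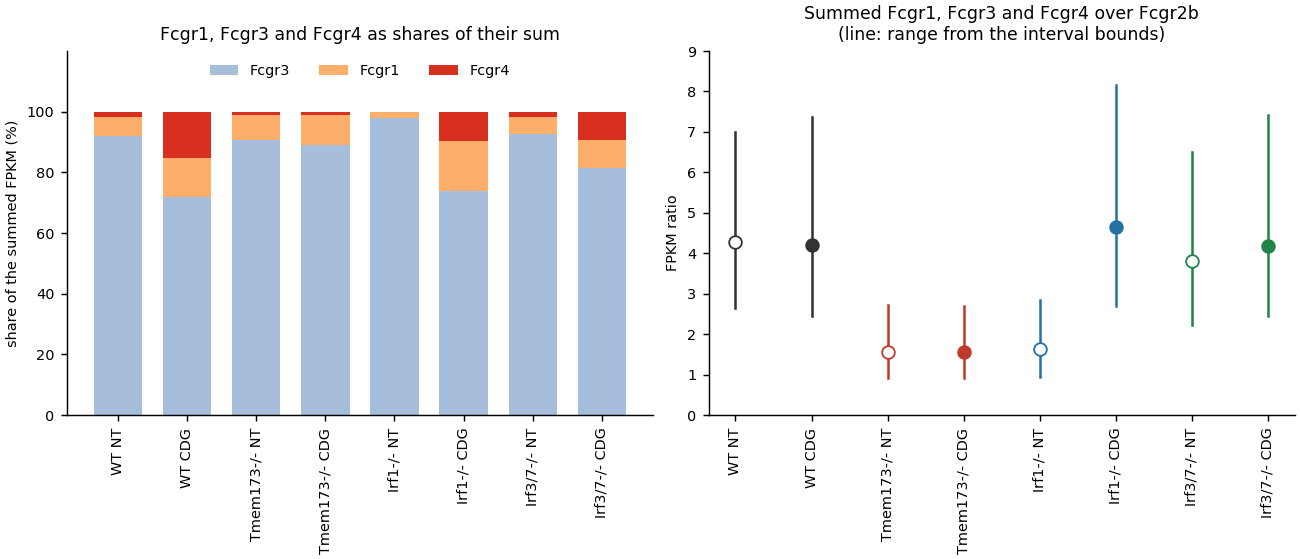
Left, stacked bars of Fcgr3, Fcgr1 and Fcgr4 as percent of their summed FPKM in the 8 conditions; right, the FPKM ratio of that sum to Fcgr2b, with lines for the range from the interval bounds (open NT, filled CDG). The share of Fcgr4 is 15.2% in WT CDG and 0.177% in Irf1-/- NT, and the ratio lies between 1.56 and 1.63 in Tmem173-/- NT, Tmem173-/- CDG and Irf1-/- NT against 3.80 to 4.65 in the other conditions. The ranges of the ratio overlap for all pairs of conditions but Tmem173-/- CDG and Irf1-/- CDG.

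Of 17 genes that carry the Fc receptor signal inside the cell, 1 rose and 2 fell with c-di-GMP in WT BMDCs, to be read against the 10.5% and 9.96% of all genes tested. Dok1, an adaptor that recruits negative regulators, went from 32.6 to 101 FPKM (log2 1.64, range 0.86 to 2.40). Fgr, a Src-family kinase, went from 30.9 to 12.9 FPKM (-1.25, range -1.92 to -0.58), and Vav3, a guanine nucleotide exchange factor, from 10.1 to 4.44 FPKM (-1.17, range -1.93 to -0.43). The same 3 genes were called in the same direction in Irf1-/- BMDCs, with log2 differences of 1.78 for Dok1, -1.25 for Fgr and -1.42 for Vav3 (9.67% higher and 7.81% lower among all genes tested). None of the 17 was called in Tmem173-/- BMDCs, beside 0.0552% of all genes tested, or in Irf3/7-/- BMDCs, beside 10.2% higher and 7.68% lower. In Irf3/7-/- BMDCs Fgr was at 22.3 and 11.1 FPKM without and with c-di-GMP (log2 -0.995, range -1.66 to -0.33), just under the 2-fold threshold with the intervals apart. None of the 17 had a change there that differed from that in WT BMDCs by the rule given above, beside 1.55% of all genes tested. Syk, the kinase that binds the phosphorylated ITAM, was at 59.4 and 87.4 FPKM in WT BMDCs without and with c-di-GMP, and SHIP1 (Inpp5d) at 26.7 and 25.5 FPKM, neither called. The median log2 difference of the list in WT BMDCs was -0.06, against 0.00 over all genes tested.

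Other receptors signal through the same γ chain. They were listed together with the sister adaptors of that chain, 10 genes in all. Of the 8 tested, 4 rose and none fell in WT BMDCs (10.5% and 9.96% of all genes tested), and the median log2 difference was 0.76 against 0.00 over all genes tested. Clec4e (Mincle, a receptor for mycobacterial glycolipid) went from 12.6 to 234 FPKM (log2 4.20, range 3.41 to 5.01) and Clec4d (MCL, its partner) from 14.0 to 107 FPKM (2.92, range 2.20 to 3.65). Pira6 and Gp6, which stayed under 10 FPKM, also rose (1.26 and 3.17) and are named here after their values were seen. Gp6 went from 0.322 to 3.69 FPKM. It passed the minimum of 1 FPKM only through its treated level, so it could be counted only as a rise. Both Clec4e and Clec4d rose in Irf1-/- (2.85 and 1.47) and in Irf3/7-/- BMDCs (3.74 and 2.88), and in treated Irf1-/- BMDCs they were lower than in treated WT, with log2 differences of -2.49 and -2.28. Clec4e was already lower in untreated Irf1-/- BMDCs, at 5.66 against 12.6 FPKM (log2 -1.15, range -1.98 to -0.31), and Clec4d was at -0.83 (range -1.59 to -0.07), which was not called. The changes with c-di-GMP in Irf1-/- BMDCs differed from those in WT by -1.35 (range -2.96 to 0.26) for Clec4e and -1.45 (range -2.91 to 0.0021) for Clec4d. No gene of the list differed by the rule, beside 1.34% of all genes tested. With c-di-GMP in Tmem173-/- BMDCs, none of this list was called, beside 0.0552% of all genes tested. Before treatment, however, 5 of the 7 tested were higher and 1 lower in Tmem173-/- than in WT BMDCs (5.04% and 5.95% of all genes tested). Pira6 was among the higher ones and Cd247, the ζ chain of T and NK cells, was the lower one. Both stayed under 10 FPKM there and are named after their values were seen. Cd247 passed the minimum only through WT (4.78 against 0.236 FPKM), so it could be counted only as lower. The others were Clec4e, Clec4n (Dectin-2), Clec4d and Tyrobp, with Clec4d at 110 against 14.0 FPKM (log2 2.96, range 2.17 to 3.74) and the adaptor Tyrobp (DAP12) at 1181 against 391 FPKM (1.59, range 0.69 to 2.40).

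The genes whose pattern was most like that of a member were found by Pearson's r of log2(FPKM + 0.1) over the 8 conditions among 7381 genes that reached 10 FPKM in one condition. This is a description over 8 points that share libraries. Nearest to Fcgr4 were Rbm43 (r = 0.99), Gsdmd, which encodes the pore-forming gasdermin D (0.98), and H2-M3, a non-classical MHC class I gene (0.97), each lowest in Irf1-/- NT and highest in WT CDG. Nearest to Fcrls were Lrrc20, Qpct and Lmo1 (each 0.99), lowest in WT CDG and highest in Irf1-/- NT. Fcgr1 was most like C3, the central complement component (0.95), Fcer1g most like Ctsd, which encodes the lysosomal protease cathepsin D (0.99), Fcgr3 most like Pld4 (0.98) and Fcgr2b most like Rgl2 (0.97). Among the members themselves, r was -0.95 between Fcgr4 and Fcrls, 0.80 between Fcgr4 and Fcgr1 and 0.83 between Fcgr3 and Fcgr2b. That of Fcgrt was 0.87 with Fcgr3 and 0.81 with Fcgr2b.

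Fcgr3 and Fcgr2b share sequence. Of the runs of 35 bases, the read length, in the annotated transcripts of Fcgr3, 12.3% also occur in those of Fcgr2b, and 3.79% of the runs of Fcgr2b occur in Fcgr3. Reads from these runs could be counted to either gene, so the levels of both carry that uncertainty. Fcgr1, Fcer1g and Fcrls shared no run of this length with another gene, Fcgr4 shared 0.736% of its runs and Fcgrt 0.986%. Fcgr2b and Fcgrt overlap antisense genes in the GENCODE annotation. The kit keeps the strand, but the strand setting of the Cuffdiff run is not stated in the sources used here.

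Markers of other cell types moved with some of these differences. The 8 dendritic cell markers reached 1 FPKM in each condition and summed to 4653 to 7494 FPKM, most of it Cd74. Against WT, untreated Irf1-/- BMDCs had 2 of them lower and none higher, H2-Ab1 (278 against 650 FPKM) and Ciita (6.75 against 25.8 FPKM). Untreated Tmem173-/- BMDCs also had 2 lower and none higher, Ciita and Ccr7. Among all genes tested, 3.52% were lower and 1.26% higher in Irf1-/-, and 5.95% and 5.04% in Tmem173-/- BMDCs. These markers are named after their values were seen. Of 8 neutrophil markers, 7 were in the table, none at 0. They summed to 19842 and 14408 FPKM in Tmem173-/- NT and CDG against 1407 to 4002 FPKM in the other conditions. Most of each sum was S100a8 and S100a9, at 10351 and 8336 FPKM in Tmem173-/- NT and 2531 and 1350 FPKM in WT NT. Both are named after their values were seen. The FPKM of S100a8 lay above its own upper bound in each condition. Against WT of the same treatment, 6 of the 7 were higher and none lower in Tmem173-/- BMDCs, untreated and treated. Among all genes tested, 5.04% and 12.9% were higher and 5.95% and 13.5% lower. The 8 macrophage markers, none at 0, summed to 578 and 528 FPKM in Tmem173-/- BMDCs, 192 and 144 FPKM in Irf1-/-, 252 and 270 FPKM in WT and 259 and 306 FPKM in Irf3/7-/- BMDCs. In untreated Tmem173-/- against WT BMDCs, 2 of these 8 were higher and none lower (5.04% and 5.95% of all genes tested). They were Csf1r (194 against 54.3 FPKM) and Cd68 (201 against 75.4 FPKM), named after their values were seen. Mertk was at 2.83 against 4.89 FPKM, not called. The higher Fcgr2b, Fcer1g, Clec4d and Tyrobp of untreated Tmem173-/- BMDCs thus stood beside higher neutrophil markers and a higher sum of macrophage markers. The part of these markers in the results was not tested. In Irf1-/- NT BMDCs, where Fcgr2b was also higher than in WT, both sums were below those of WT NT, but single markers went either way. Of the neutrophil markers, Mpo was higher (24.7 against 3.70 FPKM) and Camp lower, and Elane was at 16.4 against 2.45 FPKM with lower bounds of 0. These markers are named after their values were seen. Of the macrophage markers 5 were lower, among them C1qa, C1qb and C1qc, and Cd68 was at 111 against 75.4 FPKM, not called. Among all genes tested, 1.26% were higher and 3.52% lower, and the part of these markers in the level of Fcgr2b was not tested. The 8 T and NK cell markers summed to 3.14 and 2.54 FPKM in Tmem173-/- BMDCs, where Gzma was listed at 0 in both treatments and Ncr1 without treatment, and to 13.9 and 14.6 FPKM in Irf1-/- BMDCs, where Ncr1 was listed at 0. In WT they summed to 444 and 393 FPKM and in Irf3/7-/- BMDCs to 464 and 1148 FPKM, with none at 0. These sums moved with the lower untreated Fcgr1 and Fcgr4 of Irf1-/- BMDCs, although untreated Tmem173-/- BMDCs, with fewer such markers, had 29.5 FPKM of Fcgr1 and 4.16 FPKM of Fcgr4; their part in the results was not tested. Of 8 B cell markers, 7 were in the table, and their sum was 3.40 to 11.1 FPKM, with Cr2 or Pax5 listed at 0 in 3 conditions. It was highest in Tmem173-/- NT BMDCs, as was Fcer2a. The 8 basophil and mast cell markers, none at 0, summed to 63.3 to 279 FPKM, highest in Irf3/7-/- CDG BMDCs.

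**Figure D5:**
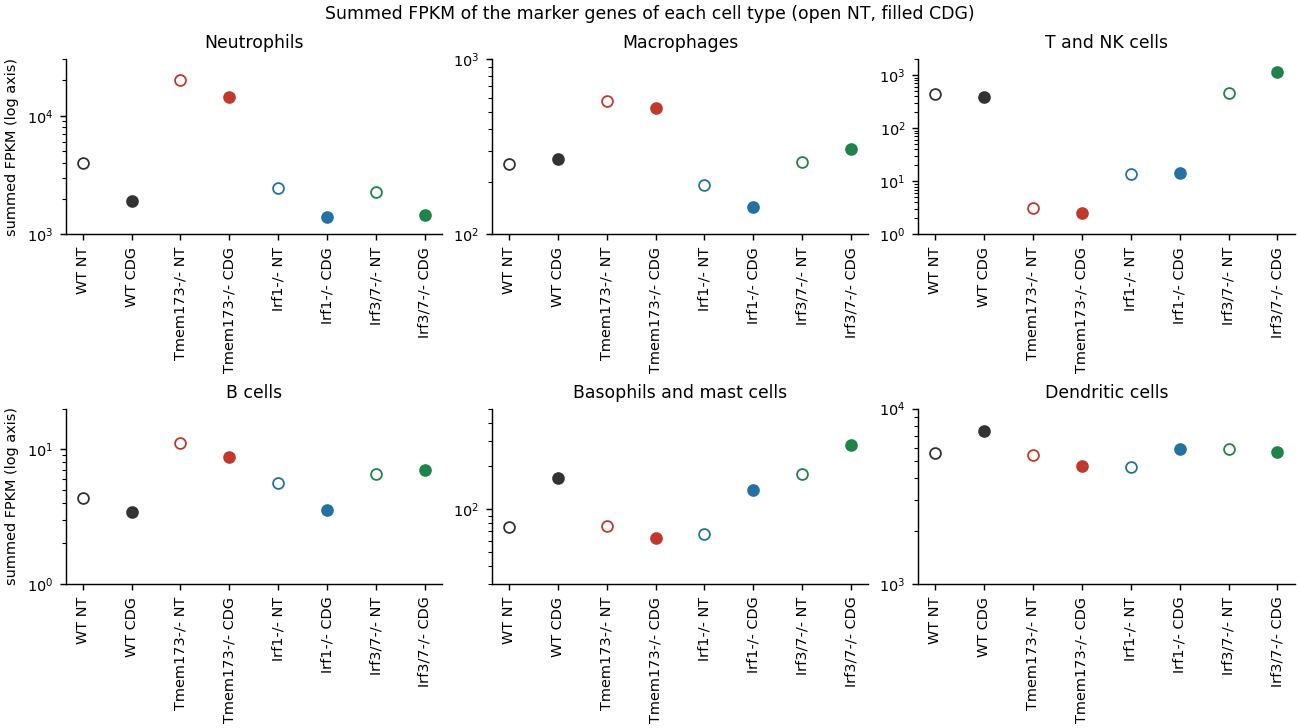
Summed FPKM, on log axes, of the marker genes of 6 cell types in the 8 conditions (open NT, filled CDG). Neutrophil markers, mostly S100a8 and S100a9, sum to 19842 and 14408 FPKM in Tmem173-/- BMDCs. T and NK cell markers sum to at most 14.6 FPKM in Tmem173-/- and Irf1-/- BMDCs against at least 393 FPKM in WT and Irf3/7-/-.

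The targeted genes were lower in the untreated BMDCs labelled as their knockout. Tmem173 was at 8.97 and 7.49 FPKM in Tmem173-/- against 103 and 118 FPKM in WT BMDCs, without and with c-di-GMP, and Irf7 at 1.07 and 4.97 FPKM in Irf3/7-/- against 15.2 and 687 FPKM. Irf1 was at 25.9 and 116 FPKM in Irf1-/- against 149 and 245 FPKM in WT BMDCs. It was at 24.1 and 23.3 FPKM in Tmem173-/- BMDCs, overlapping untreated and below treated Irf1-/- BMDCs, so its level does not set the Irf1-/- label apart from that of Tmem173-/-. Irf3 was at 7.74 FPKM in Irf3/7-/- NT against 19.9 FPKM in WT NT, but at 20.2 FPKM in Irf3/7-/- CDG against 15.8 FPKM in WT CDG. FPKM covers the whole gene, so exons left by a deletion count towards it, and the Irf3 value of the condition labelled Irf3/7-/- CDG does not check its label.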

How the data were processed

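RNA-seq of 16 BMDC samples was made with a stranded mRNA kit and read as 35-bp pairs. The authors ran Cuffdiff in the DNAnexus pipeline (version 1.06 in the submitters' processing notes), pooling both replicates of a condition, and deposited 1 FPKM, its lower and upper bound and a status for each of 23356 genes in 8 conditions. The notes name mm9 as genome build. The table's loci overlapped the RefSeq GRCm38.p6 gene of the same symbol for 98.9% of 21522 genes, so GRCm38 was used for positions. A further 4 columns of values belong to no listed sample and were not used. No aligner is named in the sources used here.

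The read depth cannot be seen in FPKM. The authors' interval gave the precision: over 4723 genes that reached 10 FPKM throughout, the upper bound lay a median of 24.3% to 24.7% above the FPKM. The columns summed to 595544 to 710814 FPKM, with 10733 to 10970 genes at 1 FPKM or more.

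From the deposited FPKM, log2(FPKM + 0.1) was compared in 11 pairs of conditions and 3 differences of changes over the whole table, with the status OK in each condition used. No p-value was computed. The members, the gene lists and the rules were chosen with earlier results of these data known. From the lists, genes called in the comparison described are named, at most the 4 largest changes per list among genes with at least 10 FPKM, and other genes that make up a small count are marked as named after their values were seen. The gene most like Fcgrt in pattern is not reported here. Sequences came from RefSeq (GRCm38.p6) and GENCODE. The 8 alternatives were another pseudocount (1 or 0.01 FPKM), no minimum or one of 5 FPKM, a 1.5-fold or 4-fold threshold, median centring, and fold change alone. The c-di-GMP dose is that of the labels, and the study's legends give a higher one. Tools were python 3.11.15, numpy 2.4.6, pandas 2.3.3 and matplotlib 3.10.9.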

Additional observations from a re-analysis of the deposited data

Results flagged for a closer look

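For 5 changes with c-di-GMP, the change in a knockout differed from that in WT BMDCs by more than 1 on the log2 scale, with ranges from the interval bounds that did not overlap. In Tmem173-/- BMDCs these were Fcgr4, with a difference of -3.46 (-0.31 in Tmem173-/- against 3.15 in WT), and Fcrls, with 5.24 (-0.53 against -5.78). In Irf1-/- BMDCs they were Fcgr1, with 1.53 (2.68 against 1.15), Fcgr4, with 1.86 (5.00 against 3.15), and Fcgr2b, with -2.11 (-2.01 against 0.09). No replicate values were used, so none of these differences was tested against the spread between samples.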

How the results depend on the processing

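No paired analysis was possible because the authors combined the replicates of each condition before deposition, and for the same reason no replicate could be left out. Of 33 member values called, 30 were called under every alternative but the 4-fold threshold, with which 17 were lost, and none changed direction. With the 4-fold threshold the number of members called fell from 3 to 2 in WT CDG against NT (without Fcgr1), from 5 to 4 in Irf1-/- CDG against NT (without Fcgrt), from 4 to 2 in Irf3/7-/- CDG against NT and in Tmem173-/- CDG against WT CDG, from 2 to 1 in Irf1-/- CDG against WT CDG, from 3 to 0 in Irf3/7-/- CDG against WT CDG, from 2 to 0 in Tmem173-/- NT against WT NT, from 4 to 2 in Irf1-/- NT against WT NT, from 1 to 0 in Irf1-/- CDG against Irf3/7-/- CDG, and from 3 to 1 for the change in Irf1-/- against that in WT. With a pseudocount of 1 FPKM, 1 member was called in place of 3 in Irf3/7-/- CDG against WT CDG. With the 1.5-fold threshold, 2 members in place of 1 were called in Irf1-/- CDG against Irf3/7-/- CDG (Fcgr1 added). Fcer1g was added in WT CDG against NT, Fcgr3 in Irf1-/- CDG against NT, and Fcgr1 in Irf3/7-/- CDG against WT CDG and in Tmem173-/- NT against WT NT. By fold change alone, the count rose from 2 to 4 for the change in Tmem173-/- and from 0 to 2 for that in Irf3/7-/- against that in WT. For the change in Irf1-/-, Fcrls was added (difference 1.21, range -0.34 to 2.91). Losses under the higher threshold and gains under the lower one, or without the intervals, follow from the construction of these alternatives. A larger pseudocount makes the ratio between low levels smaller, also by construction. Fcrls, for example, was at 1.62 FPKM in Irf3/7-/- CDG and 0.456 FPKM in WT CDG. Fcer1g crossed no threshold in WT BMDCs except that of 1.5-fold. With no minimum, the count rose from 2 to 3 in Tmem173-/- NT against WT NT. The gene added was Fcer2a (0.499 against 0.0318 FPKM, log2 2.18, range 0.49 to 3.14). Under 0.5 FPKM in every condition, it lay below the minimum set for a call. The interval covers what Cuffdiff modelled and cannot be checked against replicates here.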

Other observations

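Of 12 other genes of antibody-binding receptors and β2-microglobulin, 5 were tested in WT BMDCs and 3 rose with c-di-GMP and none fell, where 10.5% of all genes tested were higher and 9.96% lower. Besides B2m, these were Trim21, the cytosolic antibody receptor, which went from 13.3 to 36.1 FPKM (log2 1.43, range 0.70 to 2.14), and Fcrlb, which stayed under 10 FPKM (0.318 to 1.37 FPKM) and is named after its values were seen. Fcrlb passed the minimum of 1 FPKM only through its treated level, so it could enter this count only as a rise. Trim21 also rose in Irf1-/- BMDCs, from 5.51 to 28.1 FPKM (2.33, range 1.54 to 3.15), and in treated Tmem173-/- BMDCs it was lower than in treated WT (-2.76, range -3.61 to -1.94). Before treatment Trim21 was already lower than in WT, both in Tmem173-/- (4.89 against 13.3 FPKM) and in Irf1-/- BMDCs. Fcer1a, the ligand-binding chain of the high-affinity IgE receptor of basophils and mast cells, was at 13.0 FPKM in Irf3/7-/- NT and 19.1 FPKM in Irf3/7-/- CDG BMDCs against 2.66 and 3.87 FPKM in WT, and was higher in both treatments (2.25, range 1.29 to 3.26, and 2.28, range 1.37 to 3.24). With it, 6 of 8 basophil and mast cell markers were higher and none lower in untreated Irf3/7-/- BMDCs than in WT, where 1.17% of all genes tested were higher. In treated ones 7 were higher and 1 lower (4.61% and 2.69% of all genes tested), the lower one being Hdc, at 17.4 against 79.1 FPKM. Fcer1a is one of these markers itself, and their part in its level was not tested.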
